A study of Mus musculus with 6 samples.

Results

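Proteasome genes were taken as all genes of the array whose platform symbol starts with Psma, Psmb, Psmc, Psmd, Psme, Psmf or Psmg, leaving out Psmc3ip. This gave 85 of 45281 probes and 48 of the 19057 genes named by at least 1 single-symbol probe. The measurements were Illumina MouseWG-6 v2.0 BeadChip signals of total RNA from newborn mouse ovary, with 2 wildtype arrays (numbered 2 and 3) and 4 arrays of Sohlh1/Sohlh2 double knockout (numbered 1, 2, 3 and 5). All samples carry the strain label C57BL/6/129S6/SvEv, and no treatment or further allele is given. Sohlh1 and Sohlh2 encode transcription factors of the early germ line, and the comparison asked which ovarian transcripts differ when both genes are lacking. The labels do not say how the alleles were made, or whether the samples were separate animals, pools or littermates. The p-values therefore reflect the spread among these arrays alone, which may be technical.

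The proteasome is the barrel-shaped protease that degrades proteins tagged with ubiquitin. Its 20S core is built from alpha subunits, which gate the barrel, and beta subunits, some of which cut proteins, and its 19S cap recognises, unfolds and feeds in the substrate through a ring of ATPases. Interferon can exchange the cutting beta subunits for immunoproteasome forms, other activators can replace the cap, dedicated chaperones assemble core and cap, and male germ cells of the mouse use a core with an alpha subunit of their own, Psma8.

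The 6 arrays, all on 1 slide, detected 20124 to 20594 probes each. Of the 85 proteasome probes, 62 were detected on all 6 arrays and 17 on none. The test was run on probes detected on at least 2 arrays, which kept 65 proteasome probes of 40 genes, or 76.5%, against 48.5% of all probes. Precision is limited by having 2 and 4 arrays. Sohlh1, a targeted gene, was 9.81-fold lower in the double knockout, but the position of its probe relative to the deleted part is not known here. Of 9 tested germ cell markers 6 were lower and 0 higher (limma, adjusted over 12163 genes), where 4.09% of all tested genes were lower and 5.35% higher. The largest changes on the log2 scale were -3.74 for Lhx8, -3.29 for Sohlh1 and -2.73 for both Zp3 and Gdf9, while Ddx4, Dazl and Nobox did not pass. Of these 4 calls, that of Zp3 was lost when wildtype array 2 or 3 was left out (adjusted p = 0.167 or 0.0730). The list's summed linear level was 20444 to 21440 on the wildtype arrays and 3608 to 5375 on the double-knockout arrays. Sohlh1, itself targeted, is among the 6 lower markers and is part of this sum.

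Few proteasome transcripts passed the test between the genotypes. Psmd8, a lid subunit of the 19S cap, was the single probe of 65 that passed the threshold of 0.05 (limma, Benjamini-Hochberg over 21981 tested probes), and it was higher in the double knockout. Of all tested probes 3.65% passed as higher. No proteasome probe passed as lower, against 3.62% of all tested probes. In either direction 1.54% of the proteasome probes passed against 7.27% of all tested probes, and 5 of 65, or 7.69%, had an unadjusted p under 0.05 against 24.5%. Counted by gene, with the brightest tested probe standing for each gene and adjustment over 12163 genes, Psmd8 was higher and Psma8 lower, where 5.35% of all genes were higher and 4.09% lower.

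The log2 changes (double knockout minus wildtype, as for every change given here) of the 65 probes ran from -0.68 to 0.52, with a median of -0.06 against 0.00 over all tested probes. Of these values 40 were negative and 25 positive, and over all tested probes 10989 of 21981 were negative. The median size of the change was 0.116 for proteasome probes and 0.220 for all tested probes, and the median pooled SD of a probe within the genotypes was 0.132 and 0.194. The 95% interval of the change lay wholly within 1.5-fold in either direction for 48 proteasome probes, or 73.8%, against 44.0% of all tested probes. It lay within 2-fold for 64 probes, the exception being the dimmer probe of Psma8, and 85.0% of all tested probes did so. The change was over 1.5-fold in size for 1 proteasome probe, again the dimmer Psma8 probe, against 12.7% of all tested probes.

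**Figure D1:**
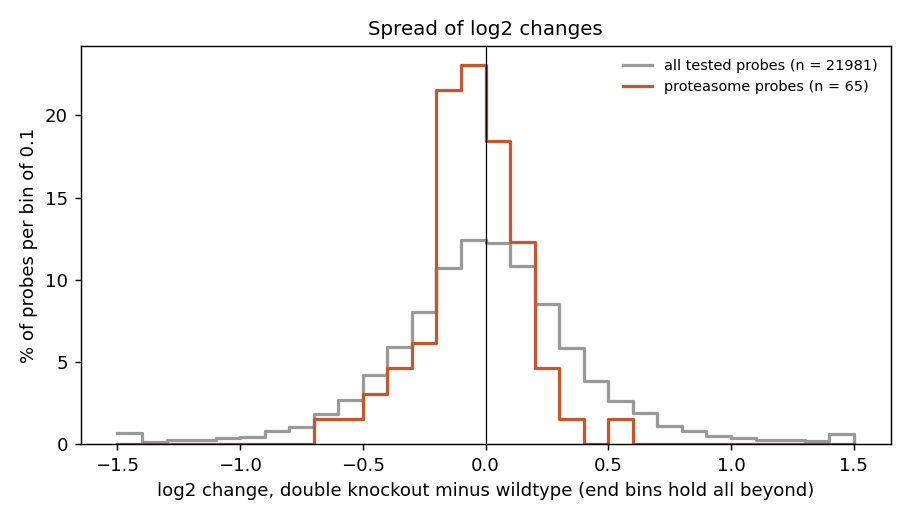
Share of probes (y axis, percent per bin of 0.1) by log2 change, double knockout minus wildtype (x axis), for the 65 tested proteasome probes and for all 21981 tested probes. The proteasome probes lie between -0.68 and 0.52, in a narrower band than all tested probes.

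For 13 proteasome probes, or 20%, both wildtype arrays lay above all 4 double-knockout arrays, against 17.0% of all tested probes. For 4 probes, or 6.15%, the arrays were apart in the other direction, against 17.8%. These 4 belonged to Psmd8, Psmg3, Psmb7 and Psmb10. For 34 of the 65 probes the difference between the genotype means was smaller than the difference between the 2 wildtype arrays. The share over all tested probes was not counted. Means over several arrays vary less than single arrays, so this count does not measure the genotype difference against the spread.

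**Figure D2:**
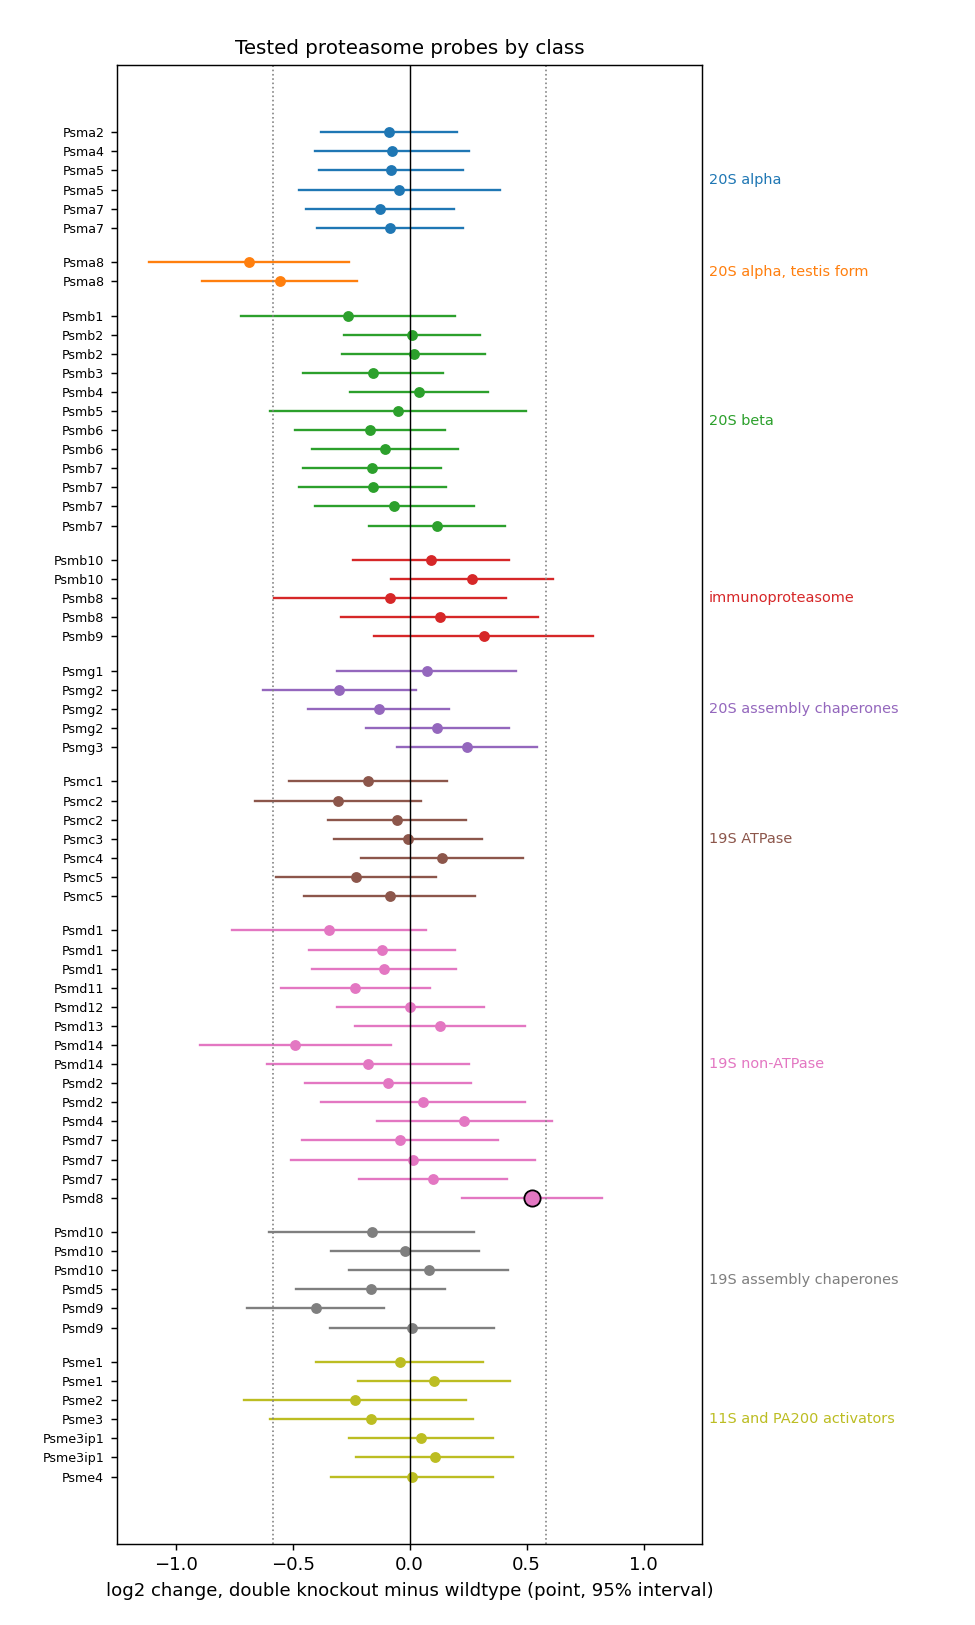
Log2 change of each tested proteasome probe (points) with its 95% interval (lines), grouped by class, with dotted lines at 1.5-fold. The large black-edged point is Psmd8, at 0.52, whose interval runs from 0.22 to 0.82.

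The Psmd8 probe read log2 levels of 10.22 and 10.19 on wildtype arrays 2 and 3, and 10.77, 10.80, 10.64 and 10.69 on double-knockout arrays 1, 2, 3 and 5. Every double-knockout array was above both wildtype arrays, with means of 10.73 ± 0.07 (SD, n = 4) and 10.20 ± 0.02 (SD, n = 2). The change was 0.52 ± 0.13 (SE), or 1.44-fold, with an adjusted p of 0.0474 over probes and 0.0412 over genes. A second Psmd8 probe was detected on no array, so the rise rests on 1 probe. The call was lost when any 1 of the 6 arrays was left out. Leaving out wildtype array 2 or 3 gave an adjusted p over probes of 0.234 or 0.188, and leaving out double-knockout array 1, 2, 3 or 5 gave 0.108, 0.0784, 0.0673 or 0.0678.

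Psma8, the alternative alpha subunit known from the testis of mice, was measured by 2 probes, both detected on all 6 arrays. The brighter probe read 7.44 and 7.12 in the wildtype and 6.81, 6.65, 6.69 and 6.76 in the double knockout. The dimmer probe read 7.11 and 6.83 against 6.48, 5.96, 6.50 and 6.20. On both probes the wildtype arrays lay above every double-knockout array. The change of the brighter probe was -0.55 ± 0.15 (SE; 95% interval -0.89 to -0.22), which is 1.47-fold, and it passed over genes (limma, adjusted p = 0.0476) but not over all probes (0.0545). The dimmer probe changed by -0.68 ± 0.19 (SE) and did not pass (adjusted p = 0.0622). The call by gene was lost without any 1 of the 6 arrays, with adjusted p from 0.0690 to 0.365, the highest without wildtype array 2. Psma8 moved in the same direction as the germ cell markers, whose median change was -2.31 with the targeted Sohlh1 included. Among them Ddx4, Dazl and Nobox changed by -0.40, -0.27 and -0.40 and did not pass. The part of the germ cell markers in the Psma8 result was not tested. In bulk tissue, fewer cells of a type and less RNA per cell cannot be told apart.

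**Figure D3:**
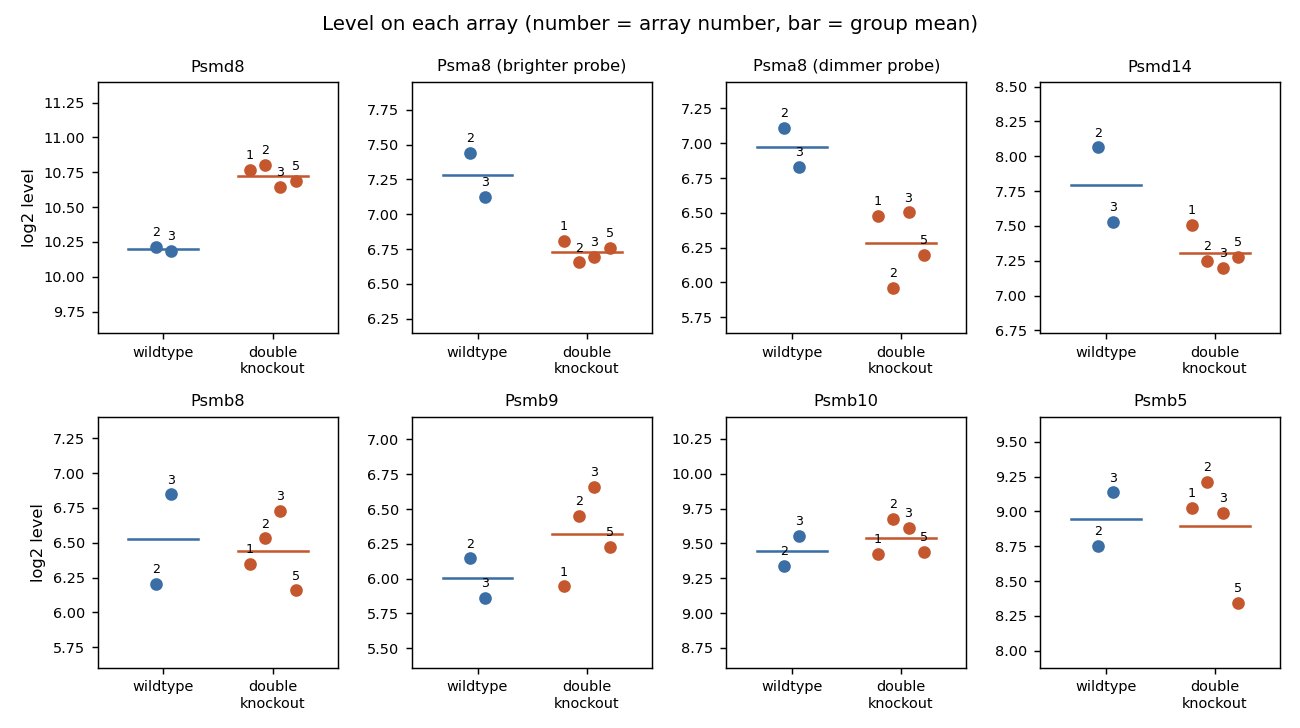
Log2 level (y axis) of 8 proteasome probes on each array, with array numbers beside the points and bars at the group means, for wildtype (n = 2) and double knockout (n = 4). The groups are apart for Psmd8, both Psma8 probes and Psmd14, and overlap for the Psmb8, Psmb9, Psmb10 and Psmb5 probes shown.

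Among the constitutive alpha subunits, Psma2, Psma4, Psma5 and Psma7 were tested through 6 probes, and none passed. Their changes ran from -0.13 for a Psma7 probe to -0.04 for the dimmer Psma5 probe, with a median of -0.08. All 6 were negative and all 6 intervals lay within 1.5-fold. Psma2 read 13.46 on both wildtype arrays and 13.34, 13.35, 13.44 and 13.36 in the double knockout. The groups were apart, but the change of -0.09 ± 0.13 (SE) was smaller than its standard error. Psma1, Psma3 and Psma6 had no tested probe.

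All 7 constitutive beta subunits were tested, through 12 probes, and none passed, with a median of -0.08 and 8 negative values. The catalytic subunits are Psmb5, Psmb6 and Psmb7, which carry the chymotrypsin-like, caspase-like and trypsin-like activity. Psmb5 read 8.75 and 9.14 in the wildtype and 9.02, 9.21, 8.99 and 8.34 in the double knockout. The groups overlapped, with the lowest value on double-knockout array 5, and the change was -0.05 ± 0.24 (SE, adjusted p = 0.925).

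The brighter Psmb6 probe read 12.18 and 12.12 against 12.07, 12.11, 11.86 and 11.89, just apart, and changed by -0.17 ± 0.14 (SE, adjusted p = 0.507). The other Psmb6 probe changed by -0.11. The 4 Psmb7 probes gave -0.16, -0.16, -0.06 and 0.12, and their signs did not match. The brightest of them read 12.25 and 12.18 in the wildtype and 11.99, 12.04, 12.06 and 12.12 in the double knockout (adjusted p = 0.491). The structural subunits Psmb1, Psmb2, Psmb3 and Psmb4 ranged from -0.26 for Psmb1 to 0.04 for Psmb4.

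In the 19S cap the ATPases Psmc1 to Psmc5 were tested through 7 probes, with a median change of -0.08, and none passed (smallest adjusted p = 0.270). Psmc4 gave the one positive value, 0.14 ± 0.15 (SE). The value with the smallest p was that of the dimmer Psmc2 probe, which none of the double-knockout arrays detected. This probe changed by -0.31 ± 0.16 (SE), from a wildtype mean of 4.83 to a measured double-knockout mean of 4.52. Its interval ran from -0.66 to 0.05, so equal levels are not excluded. With the double-knockout values set to the lowest detected level of each array, the means differed by 1.05-fold. The wildtype values of 4.77 and 4.88 were themselves close to the lowest detected levels of their arrays, 4.73 and 4.72. The brighter Psmc2 probe changed by -0.05 ± 0.13 (SE), and Psmc6 had no tested probe.

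The non-ATPase cap subunits were the class with the widest range, from -0.49 for Psmd14 to 0.52 for Psmd8, over 15 probes of 9 genes with a median of -0.04. Psmd14, the metalloprotease that removes ubiquitin chains from the substrate, read 8.06 and 7.53 on its brighter probe in the wildtype and 7.51, 7.25, 7.20 and 7.28 in the double knockout. Wildtype array 2 stood well above wildtype array 3, which itself was barely above double-knockout array 1. The change of -0.49 ± 0.18 (SE) did not pass (adjusted p = 0.136), and leaving out wildtype array 2 or 3 gave -0.22 or -0.76. The second Psmd14 probe changed by -0.18.

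Psmd4, a ubiquitin receptor, read 12.90 and 12.85 against 12.81, 13.10, 13.23 and 13.29, and changed by 0.23 ± 0.17 (SE, adjusted p = 0.426). Psmd1, a scaffold subunit of the base, gave -0.12, -0.11 and -0.34 on its 3 tested probes, while the probes of Psmd2, the other large scaffold, gave 0.06 and -0.09. Among the remaining lid subunits Psmd11 changed by -0.23, Psmd12 by 0.00 and Psmd13 by 0.13, and the 3 Psmd7 probes gave 0.10, 0.02 and -0.04. Psmd3 and Psmd6 had no tested probe. Over the 20S core and the 19S cap together, Psma8 and immunoproteasome forms left out, 40 probes of 25 genes were tested, of which 1 was higher, 0 lower and 39 did not pass.

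The chaperones that assemble the cap are Psmd5, Psmd9 and Psmd10, and none of their 6 tested probes passed. The dimmer Psmd9 probe read 5.44 on both wildtype arrays and 4.98 to 5.09 in the double knockout, so the groups were apart. It changed by -0.40 ± 0.13 (SE, adjusted p = 0.0954), whereas the other Psmd9 probe changed by 0.01 ± 0.16 (SE). Among the chaperones of the 20S core, Psmg3 read 9.27 and 9.16 against 9.49, 9.38, 9.47 and 9.51, which are apart, and changed by 0.25 ± 0.13 (SE, adjusted p = 0.292). Psmg1 changed by 0.07, the 3 Psmg2 probes by 0.12, -0.13 and -0.30, and Psmg4 had no tested probe.

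Psmb8, Psmb9 and Psmb10 are the cutting subunits of the immunoproteasome, and none of their 5 tested probes passed (smallest adjusted p = 0.322). Psmb9 read 6.14 and 5.86 in the wildtype and 5.94, 6.45, 6.66 and 6.23 in the double knockout. The groups overlapped through double-knockout array 1, and the change was 0.32 ± 0.21 (SE, adjusted p = 0.390) with a 95% interval of -0.15 to 0.79. Psmb8 read 6.21 and 6.85 against 6.35, 6.53, 6.73 and 6.16 on its brighter probe. All but one of those double-knockout values fell between the 2 wildtype values, and the change was -0.08 ± 0.22 (SE, adjusted p = 0.851), with 0.13 on the dimmer probe.

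The brighter Psmb10 probe read 9.34 and 9.55 against 9.42, 9.68, 9.61 and 9.44, with overlap, and changed by 0.09 ± 0.15 (SE, adjusted p = 0.753). The other Psmb10 probe changed by 0.27 ± 0.15 (SE), with the groups apart and a 95% interval of -0.08 to 0.61. Psmb11, the thymus form, was detected on 1 array and was not tested. These intervals include rises of over 1.5-fold for Psmb9 and Psmb10, so a p that missed the threshold does not show equal levels.

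The 11S activator that interferon induces is made of Psme1 and Psme2. Psme1 read 11.99 and 11.80 against 11.90, 12.11, 12.07 and 11.91 on its brighter probe and changed by 0.10 ± 0.14 (SE, adjusted p = 0.703), with -0.04 on the other. Psme2 read 8.60 and 9.21 against 8.72, 8.91, 8.68 and 8.37, and changed by -0.23 ± 0.21 (SE, adjusted p = 0.540). The 2 wildtype arrays differed from each other by more than the genotypes did. Psme3, the nuclear 11S subunit, changed by -0.16 and its binding partner Psme3ip1 by 0.05 and 0.11. Psme4, the PA200 activator known from the degradation of histones in mouse testis, read 11.37 and 11.18 against 11.28, 11.15, 11.22 and 11.51 and changed by 0.01 ± 0.15 (SE, adjusted p = 0.977).

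Genes of interferon signalling included several that were higher in the double knockout on the same arrays. Of 18 tested genes in that list 7 rose, 0 fell and 11 did not pass (limma, adjusted over 12163 genes), where 5.35% of all tested genes were higher and 4.09% lower. The median change was 0.38 against 0.03 over all tested genes. The summed linear level of the list overlapped between the genotypes, at 8643 and 8806 in the wildtype and 7539 to 9513 in the double knockout. That sum leans on the brightest tested gene, Ifitm3, which went the other way. It read 12.33 and 12.40 in the wildtype and 12.25, 12.26, 11.49 and 11.49 in the double knockout. Its change of -0.49 ± 0.26 (SE) did not pass (adjusted p = 0.260). Usp18 rose by 1.83 ± 0.34 (SE), Ifit3 by 1.70 ± 0.18, Isg15 by 1.43 ± 0.23 and Ifi35 by 0.89 ± 0.17. Leaving out wildtype array 2 or 3 lowered the count of risers to 1 or 2, and leaving out double-knockout array 1 lowered it to 4. Ifit3 was called with any 1 array left out, while the other 3 lost the call without either wildtype array. Of 8 tested macrophage and leukocyte markers 0 passed in either direction. Their changes were mixed, 5 positive and 3 negative, with a median of 0.10. The brightest, Laptm5 and Fcer1g, changed by 0.77 and 0.15. The summed linear level of this list was 2360 to 3366 in the wildtype and 3432 to 5717 in the double knockout. That sum leans on Laptm5, so it does not speak for the other markers. All 8 tested pregranulosa markers had positive changes (median 0.40) and 2 rose, Hsd17b1 by 1.08 and Amhr2 by 0.63, at summed levels of 3814 and 5295 against 6262 to 7015. That sum leans on Amhr2, the brightest of the list. Foxl2 and Kitl were near background and changed by 0.08 ± 0.18 and 0.19 ± 0.20 (SE), each by less than its standard error. All 3 tested endothelial markers were positive and none passed (median 0.37, with Cdh5 and Pecam1 at 0.37 each), at summed levels of 951 and 1058 against 1133 to 1323. All 3 tested erythroid markers were positive (median 1.35) and 1, Alas2, rose by 1.35. Their summed levels were 23546 and 25298 against 26020 to 30408. By far the brightest of them was Hba-a1, which changed by 0.09 with overlapping groups. Slc4a1 changed by 3.72 ± 1.03 (SE) and did not pass (adjusted p = 0.0555), reading 7.65 to 11.98 across the double-knockout arrays. Single arrays decided these marker calls. Leaving out wildtype array 2 ended the call of Hsd17b1 (adjusted p = 0.0711). Leaving out any of wildtype arrays 2 and 3 and double-knockout arrays 1 and 3 ended that of Alas2 (up to 0.201), and leaving out any 1 of the 6 arrays ended that of Amhr2 (0.0505 to 0.343). The part of these cell types in the interferon and proteasome values was not tested.

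In the antigen processing list, whose peptides the immunoproteasome supplies, 1 of 12 tested genes rose, 0 fell and 11 did not pass, with a median of -0.06. Of all tested genes 5.35% were higher, so 1 of 12 is near the background. The riser was Tap2, a subunit of the peptide transporter, which read 6.67 and 7.22 against 7.68, 7.91, 8.13 and 7.58. Its groups were apart and it rose by 0.88 ± 0.21 (SE, adjusted p = 0.0347). The call was lost without either wildtype array or without double-knockout array 1, 2 or 3, with adjusted p up to 0.306. Psmb9, Tap1, Psmb8 and Tap2 lie next to each other in this order on chromosome 17, and their changes were 0.32, -0.05, -0.08 and 0.88.

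**Figure D4:**
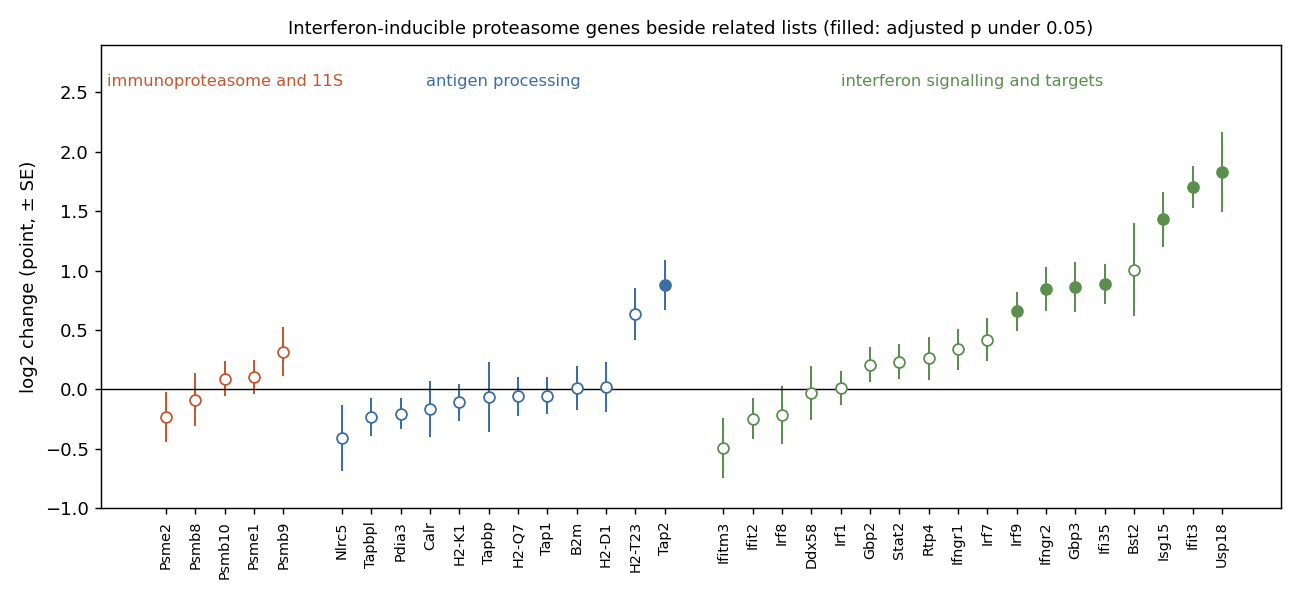
Log2 change (points) ± SE (bars) by gene for immunoproteasome and 11S members, the antigen processing list and the interferon list, filled where the adjusted p over genes was under 0.05. No proteasome gene shown is filled, Tap2 is at 0.88 and Usp18 at 1.83.

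Genes that work with the proteasome but carry other symbols were described in the same way. Of 12 tested proteasome-bound and assembly factors 0 passed, with a median of -0.01 and 6 negative and 6 positive changes. The brightest were Pomp, a core assembly factor, at 0.10, and Sem1, a small lid subunit, at -0.11. The list was not flat. Its changes ran from -0.65 for Ecpas (limma, adjusted p = 0.0870) to 0.49 for Usp14 (adjusted p = 0.232), both with the groups apart. None of 7 tested ubiquitin genes and activating enzymes passed (median -0.10, the brightest being Nedd8 at 0.01 and Ube2l3 at -0.10), nor did any of 9 genes of the p97 unfoldase and shuttling factors (median -0.07), of which the brightest, Vcp and Faf1, changed by -0.05 and 0.00. In the Nrf1 route, through which cells with a blocked proteasome raise their proteasome genes, 1 of 12 tested genes rose, 0 fell and the median was 0.04, and this count too is near the 5.35% of all tested genes. The riser was Syvn1, a ubiquitin ligase of the endoplasmic reticulum, at 0.65 ± 0.16 (SE, adjusted p = 0.0369). That call was lost without wildtype array 2 or 3 or double-knockout array 1, 3 or 5, with adjusted p up to 0.315. Nfe2l1, the gene of Nrf1, changed by 0.02.

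Differences between single arrays were of the size of the genotype difference. The median deviation of the 65 probes from their own means was 0.06 and 0.01 on wildtype arrays 2 and 3. It was -0.07, 0.03, 0.05 and -0.05 on double-knockout arrays 1, 2, 3 and 5, so the array medians of the groups overlapped. Wildtype array 2 held the highest value of 23 probes and double-knockout array 1 the lowest of 22. These were also the arrays with the highest and the lowest upper quartile of raw signal, 165.8 and 131.6, and the part of raw brightness in these values was not tested.

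**Figure D5:**
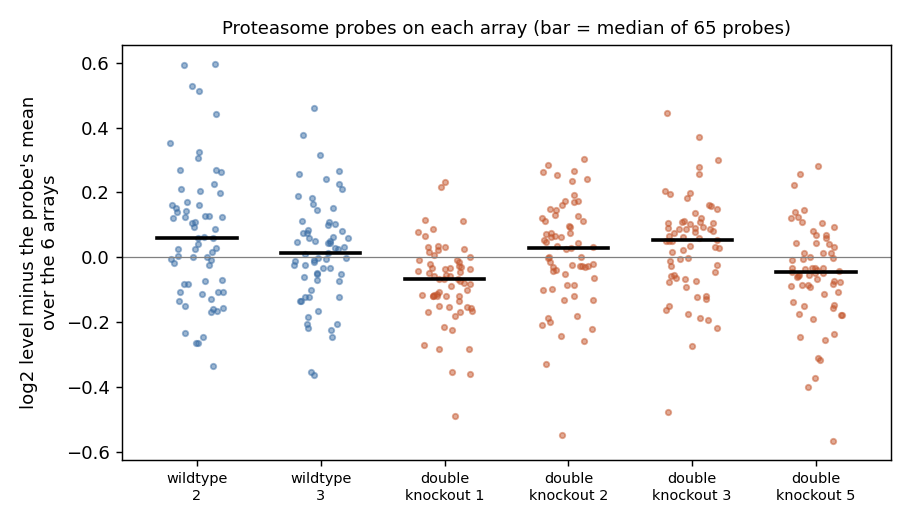
Log2 level of each of the 65 tested proteasome probes minus its own mean over the 6 arrays (points), by array, with bars at the medians. The medians run from -0.07 on double-knockout array 1 to 0.06 on wildtype array 2, and those of the groups overlap.

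Probes of 1 gene did not always give the same sign. Of 19 genes with more than 1 tested probe, 8 had probes of opposite sign, namely Psmb7, Psmb8, Psmd2, Psmd7, Psmd9, Psmd10, Psme1 and Psmg2. The share among all genes with several tested probes was not counted. The median size of a proteasome change, 0.116, was below the median SE of 0.148, so signs that differ are not a trait of these genes. For 21 genes, Psmd8 among them, a single probe was tested. For 8 genes at least 1 probe was tested and another was too dim, and 8 genes had no tested probe (Psma1, Psma3, Psma6, Psmb11, Psmc6, Psmd3, Psmd6 and Psmg4). Probes with several gene symbols or none were left out of the set. No remaining probe carried Psmf1 as its symbol, so Psmf1 is not analysed here.

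Promoter sequences were read for the 40 of 48 genes found in the RefSeq table, 44 promoters in all, from 250 bases before to 50 after each gene's start (GRCm38.p6). Shown here are those of the one proteasome probe that rose, Psmd8 (chr7:29180624-29180923, minus strand), the catalytic subunit Psmb5 (chr14:54617946-54618245, minus strand), and the interferon-inducible genes Psme1 (chr14:55578244-55578543, plus strand) and Psmb9 (chr17:34187281-34187580, minus strand). Each is written 5′ to 3′ on the gene's strand. Capitals mark the antioxidant response element TGACNNNGC in Psmb5, the core of the interferon-stimulated response element (GAAA, any 2 bases, GAAA) on the reverse strand in Psme1, and the CCAAT box on the reverse strand in Psmb9.
Psmd8 promoter: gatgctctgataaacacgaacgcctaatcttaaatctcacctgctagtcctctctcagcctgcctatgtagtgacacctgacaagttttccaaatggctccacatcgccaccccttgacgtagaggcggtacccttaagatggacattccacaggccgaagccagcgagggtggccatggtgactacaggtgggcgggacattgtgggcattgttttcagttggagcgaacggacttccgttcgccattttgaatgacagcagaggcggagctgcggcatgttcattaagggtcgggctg
Psmb5 promoter: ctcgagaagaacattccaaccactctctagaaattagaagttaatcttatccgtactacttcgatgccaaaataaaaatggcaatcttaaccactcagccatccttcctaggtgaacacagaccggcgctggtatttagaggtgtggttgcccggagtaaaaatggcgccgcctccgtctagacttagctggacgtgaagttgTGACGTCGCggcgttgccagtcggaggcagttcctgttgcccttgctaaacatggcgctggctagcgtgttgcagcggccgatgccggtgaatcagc
Psme1 promoter: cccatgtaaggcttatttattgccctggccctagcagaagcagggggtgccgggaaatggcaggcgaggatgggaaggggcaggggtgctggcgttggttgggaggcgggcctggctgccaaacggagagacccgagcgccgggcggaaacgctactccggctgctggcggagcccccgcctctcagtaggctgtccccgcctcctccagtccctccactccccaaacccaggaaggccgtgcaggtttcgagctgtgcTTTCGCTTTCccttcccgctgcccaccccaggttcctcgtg
Psmb9 promoter: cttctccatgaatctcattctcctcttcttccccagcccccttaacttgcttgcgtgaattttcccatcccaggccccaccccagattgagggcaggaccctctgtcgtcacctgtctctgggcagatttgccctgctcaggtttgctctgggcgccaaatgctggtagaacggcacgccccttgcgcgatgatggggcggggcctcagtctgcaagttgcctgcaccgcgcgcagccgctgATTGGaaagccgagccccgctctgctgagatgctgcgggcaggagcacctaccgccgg

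These letters and the E-box CACGTG were searched on both strands, and a match is a description only. TGACNNNGC was found in 6 of 44 proteasome promoters, or 13.6%, against 12.4% of all 32851 promoters. CCAAT was found in 15, or 34.1%, against 37.4%. The core of the interferon-stimulated response element was found in 5, or 11.4%, against 3.44%, and those 5 belong to Psmb3, Psmd4, Psmd9, Psme1 and Psmg4. The first 4 of these genes were tested and did not pass, and Psmg4 had no tested probe. CACGTG was found in 5, or 11.4%, against 7.15%. The Psmd8 window shown holds no match to any of these letters.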

How the data were processed

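The authors deposited a raw intensity for every probe and array, with a detection score beside it that behaves as 1 minus a detection p, and a value table of quantile-normalized intensity. GenomeStudio is named in the submitters' processing notes, with no version. Per the labels' protocols, RNA was extracted with RNeasy and DNase I and amplified with TotalPrep.

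From the deposited raw intensities, background was corrected with normexp (nec, limma 3.58.1, R 4.3.3), an offset of 16 added, and the arrays were quantile normalized and taken to log2. Probes with a detection p under 0.05 on at least 2 of 6 arrays were tested. Genotypes were compared with lmFit and eBayes over all tested probes, without covariates, with Benjamini-Hochberg adjustment at 0.05, over probes and, for counts by gene and for every gene outside the proteasome, over 1 probe a gene (the brightest by its mean over all arrays). Symbols came from the platform annotation. Psmd5, Psmd9 and Psmd10 were counted as chaperones.

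Every proteasome gene could be named. Members past the threshold and Psmb5 to Psmb11, Psma8, Psme1, Psme2 and Psme4 were given by array, Psmb11 by its raw signal. From other lists up to 4 called genes with the largest change were named, or, where none passed, the 2 brightest. Tap1, Nfe2l1, Ddx4, Dazl, Nobox, Ifitm3, Hba-a1, Slc4a1, Foxl2, Kitl, Ecpas and Usp14 were named after their values were seen. Members and lists were chosen with earlier results of these data known, the higher interferon genes among them, so none of these counts is independent support. An exact permutation test of 2 against 4 arrays cannot go below 0.0667 and was not used. Titles and descriptions number the samples differently. Numbers were not treated as pairs, because the labels do not state that they pair samples. Deviations of same-numbered arrays correlated at -0.10 and -0.03 (titles) and -0.11 and 0.10 (descriptions). With only 2 wildtype arrays their deviations mirror each other, so these values cannot tell the numberings apart or exclude pairing. On simulated data the fit first missed the recovery set for it, and met it after the simulated spread was changed to limma's shrunken variances, so this is weak support.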

Additional observations from a re-analysis of the deposited data

Results flagged for a closer look

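In the 4 double-knockout arrays, 4 of the 65 tested proteasome probes had 1 array far from the other 3, and chance flags about 1 in 20 such groups. Psmc3 was low on array 1, at 11.45 against 11.69 to 11.70 on the others. Psmd11 was low on array 5, at 8.09 against 8.31 to 8.34. Psma2 was high on array 3, at 13.44 against 13.34 to 13.36. A Psmb7 probe was high on array 2, at 10.61 against 10.42 to 10.45.

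A pair of untested probes gave a signal on 1 double-knockout array and on no wildtype array. Psmd6 had a raw signal of 65.3 on double-knockout array 3, where the wildtype arrays read 52.3 and 59.7. Psmb11 had 62.7 on double-knockout array 5, with 59.2 and 52.3 on wildtype arrays 2 and 3. On double-knockout arrays 1, 2 and 3 it read 53.4, 62.3 and 54.8, so array 2 was close to array 5 though not called detected. At a detection p under 0.05 some single detections can arise by chance. A second untested Psmd6 probe went the other way: it was detected on wildtype array 2, at 70.4, and on no double-knockout array, where it read 53.9 to 57.3.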

How the results depend on the processing

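Of 14 alternatives, none turned the direction of a called proteasome value. Over probes, 1 was lower rather than 0 without background correction, with an offset of 50, with the authors' values and with probes detected on all 6 arrays (Psma8 each time), and 1 with no filter on dim probes (Psmd9). The higher probe was lost with 75th percentile scaling, giving 0 by probe and 0 by gene. Leaving out each array in turn gave 0 to 0 lower and 0 to 0 higher, by probe and by gene. With a replicate block by the titles' or the descriptions' numbers, 0 probes and 0 genes were higher and 0 genes lower (Psmd8 adjusted p 0.220 and 0.102). The median of the proteasome probes ran from -0.08 to -0.01, the latter with the block by titles. The sign of 28 of 65 changes, none called under any alternative that turned it, depended on the setting. Calls over all probes were 1598, but 224 without wildtype array 2, 431 without wildtype array 3, 856 without double-knockout array 1 and 881 with the block by titles. With 75th percentile scaling the median over all probes was 0.05 and that of the proteasome probes -0.05. Alternatives by gene and for the interferon list were chosen after seeing the data. A slide block was not run, since there was 1 slide. Dim probes near background, Psmc2, Psmd9 and Psmd2 among them, limit what could be measured.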
